A study of Homo sapiens with 2 samples.

Results

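Adrenomedullin, endothelin-1 and B-type natriuretic peptide are vasoactive peptides. With endothelin-2, the endothelin-processing enzyme, the endothelin receptors, and the receptor CALCRL with its partner RAMP1, they make up the 9 genes described here. The genes are ADM, EDN1, EDN2, NPPB, ECE1, EDNRA, EDNRB, CALCRL and RAMP1. They were taken as every probe set annotated to exactly one of these symbols, which gave 15 probe sets of 54613 on the array and 8 of the 9 genes. EDNRA had no probe set named here and was not analysed here. The genes were chosen by their known roles with the intensities and differences of these arrays in view, so all levels and differences below are a description and none is tested.

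The samples were 2 human renal cell carcinoma lines with 1 Affymetrix array each, on biotin-labelled total RNA. 786-VHL was derived from 786-O and contains a functional allele of VHL, and 786-O harbors a mutated one. Whether 786-VHL is a clone or a pool, and how the allele was introduced, is not given in the sources used here. No agent, dose or time is labelled for either array. The comparison addressed which genes depend on functional VHL, and with 1 array per line it has no replicate check, standard error or p-value.

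Adrenomedullin is a secreted vasodilator that acts through the receptor CALCRL when CALCRL is paired with RAMP2 or RAMP3, whereas RAMP1 turns the same receptor into one for calcitonin gene-related peptide. Endothelins are short vasoconstrictor peptides cut from longer precursors by ECE1, and they act through EDNRA, best known on smooth muscle, and EDNRB, best known on endothelium and kidney collecting duct. B-type natriuretic peptide, encoded by NPPB, is best known from heart muscle and raises cyclic GMP through the receptor NPR1. The VHL protein recognises hydroxylated HIF alpha subunits and has them ubiquitinated and degraded, and ADM and EDN1 are known HIF targets. Adrenomedullin and endothelin are also known as products of renal tumour cells.

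Values are intensities in arbitrary units, and differences are log2(786-VHL + 16) minus log2(786-O + 16), where the added 16 damps noise in dim probe sets and understates their differences. A probe set is called above the floor where its higher intensity exceeded 22.3, the pooled median of all values, and a gene is called measured where its brightest probe set did. Of the 15 probe sets 8 were above the floor, and 6 of the 8 genes with a probe set were measured, each with both arrays above the floor. Median intensities of the whole arrays were 22.58 in 786-VHL and 21.97 in 786-O. VHL had intensities of 15.96 in 786-VHL, below the floor, and 28.85 in 786-O on its brighter probe set. Its other probe set was below the floor, at 7.96 in 786-VHL and 6.32 in 786-O. These values do not check the labels, since an introduced allele need not carry the sequence these probes read. Why the brighter probe set was lower in 786-VHL was not tested. Every direction here rests on the array labels. EPAS1, the HIF alpha subunit known to act in 786-O, had 798.6 in 786-VHL and 367.1 in 786-O on its brightest probe set, a difference of 1.09. Its other probe set above the floor had 68.97 in 786-VHL and 47.3 in 786-O, a difference of 0.425.

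Among the peptide genes 3 were lower in 786-VHL and 1 was higher. NPPB, EDN1 and ADM differed by -2.75, -2.44 and -1.51, and EDN2, which encodes the second endothelin, differed by 1.01. The enzyme gene ECE1 and the receptor partner gene RAMP1 were within 0.16 of 0, and the receptor genes CALCRL and EDNRB were below the floor on every probe set. Thus 4 of the 6 measured genes passed 2-fold, 3 lower and 1 higher in 786-VHL, and 5 of the 8 probe sets above the floor did. The share past 2-fold was 3.72% of all 13291 measured genes, with 2.18% lower and 1.54% higher, and 4.11% of all 24414 single-gene probe sets above the floor. The genes were grouped with these values in view, so the excess over that share is not a result.

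**Figure D1:**
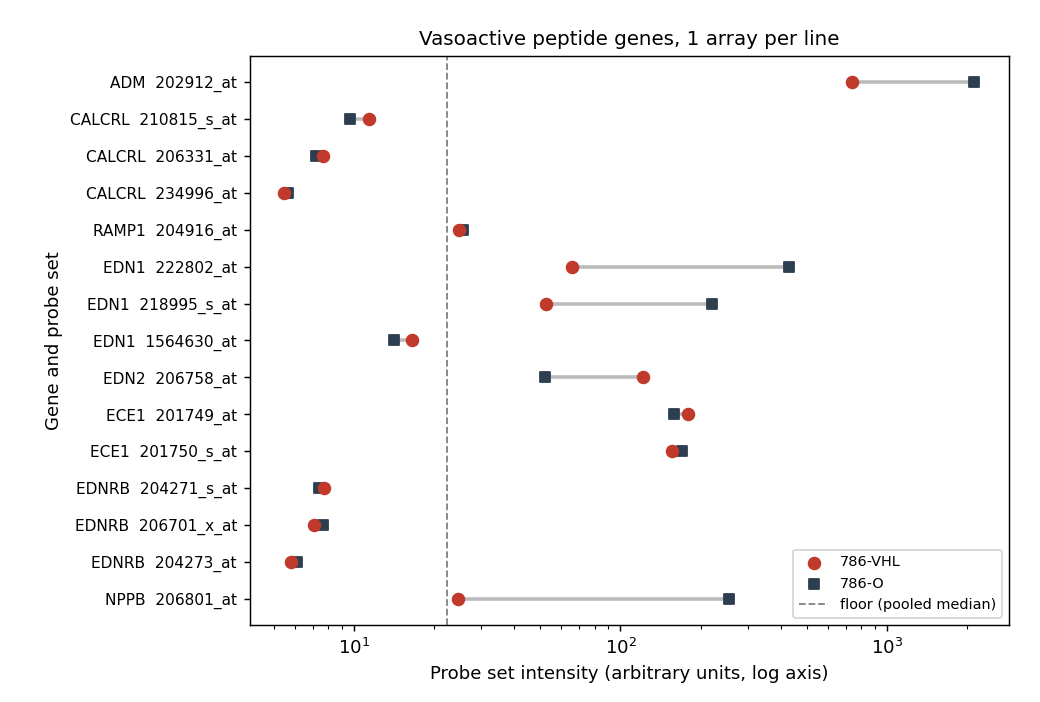
Intensity of each of the 15 probe sets (horizontal log axis, arbitrary units) in 786-VHL (circles) and 786-O (squares), 1 array per line, with the floor of 22.3 dashed. NPPB, ADM and the 2 brighter EDN1 probe sets lie further left in 786-VHL, EDN2 lies further right, and all CALCRL and EDNRB values lie left of the floor.

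ADM, the brightest of these probe sets on both arrays, had an intensity of 736.96 in 786-VHL and 2124 in 786-O on its single probe set, 202912_at. Within each array these values stood at percentile 93.8 of all probe sets in 786-VHL and 98.1 in 786-O, so the gene was well above the floor on both arrays. The intensity was 2.88-fold lower in 786-VHL, and 2.84-fold lower after the addition of 16, which at this brightness hardly matters. ADM ranked 93 from the lowest difference among the 13291 measured genes.

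EDN1, which encodes the main vasoconstrictor endothelin, had an intensity of 65.96 in 786-VHL and 428.96 in 786-O on probe set 222802_at. The intensity ratio was 6.50-fold, or 5.43-fold after the addition of 16, and the gene ranked 25 from the lowest. Its next probe set, 218995_s_at, had 52.51 in 786-VHL and 221.07 in 786-O, a difference of -1.79. Both therefore placed the transcript lower in 786-VHL, and their differences lay 0.65 apart, beside a pooled SD of 0.328 between probe sets of the same gene over 6436 genes with several above the floor. That SD covers differences between probes only, not between cultures or arrays. The third EDN1 probe set, 1564630_at, was below the floor at 16.5 in 786-VHL and 14.2 in 786-O, and gave a difference of 0.11.

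EDN2 had an intensity of 120.96 in 786-VHL and 51.96 in 786-O on its single probe set, 206758_at, opposite in direction to EDN1. The intensity ratio was 2.33-fold, or 2.02-fold after the addition of 16, so EDN2 lay only just past the 2-fold line, at rank 201 from the highest difference. With the intensity trend removed its difference was 0.99, and with a pseudocount of 64 it was 0.67, both under 2-fold. No other probe set was named for EDN2, so the spread between probes is unknown for it. Levels of EDN1 and EDN2 cannot be set against each other, since different probes bind with different strength.

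NPPB had the largest difference of the 15 probe sets, with an intensity of 24.5 in 786-VHL and 255.8 in 786-O on its single probe set, 206801_at. In 786-VHL this was only just above the floor, at percentile 52.0 of all probe sets, and in 786-O it stood at percentile 85.2. The intensity ratio was 10.4-fold, and 6.70-fold after the addition of 16. NPPB ranked 12 from the lowest of all measured genes. Because the value in 786-VHL is close to the level where most dim probe sets lie, the size of this difference depends on the pseudocount, from -1.85 with 64 to -3.33 with 1. In RNA from a whole culture, fewer cells with a transcript and less transcript per cell cannot be told apart.

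**Figure D2:**
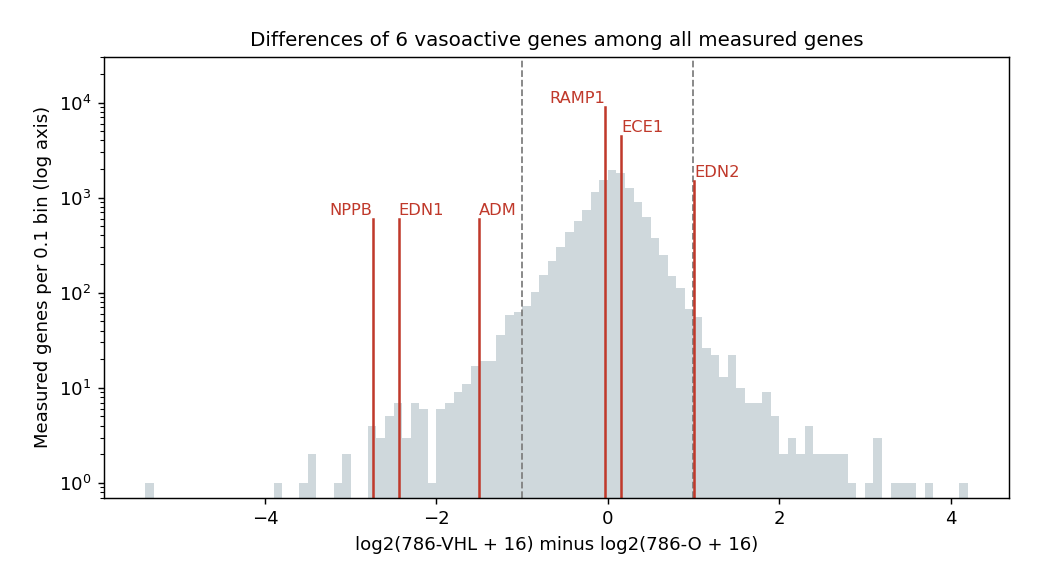
Number of measured genes (log axis) by log2 difference, 786-VHL minus 786-O, in bins of 0.1, with the 6 measured vasoactive genes marked by lines and the 2-fold limits dashed. NPPB, EDN1 and ADM lie in the lower tail at -2.75, -2.44 and -1.51, EDN2 lies at the upper limit, and RAMP1 and ECE1 lie in the middle.

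The window around the annotated start site is shown for the peptide genes that have one in the RefSeq table, because ADM and EDN1 are known HIF targets. NPPB had no window there. These genes were picked with their differences in view, and whether the letters bear on the differences was not tested. EDN1 had several, and the one holding the letters TATAAA was chosen for display. Capitals mark the core letters of the HIF-binding element, ACGTG or GCGTG, on either strand (CACGT is ACGTG read from the other strand). Each window runs from 250 bases before to 50 after the start on GRCh38.p14. It is written 5′ to 3′ in the direction of the gene: ADM at chr11:10304823-10305122 (plus strand), EDN1 at chr6:12290111-12290410 (plus strand) and EDN2 at chr1:41484634-41484933 (minus strand).
ADM: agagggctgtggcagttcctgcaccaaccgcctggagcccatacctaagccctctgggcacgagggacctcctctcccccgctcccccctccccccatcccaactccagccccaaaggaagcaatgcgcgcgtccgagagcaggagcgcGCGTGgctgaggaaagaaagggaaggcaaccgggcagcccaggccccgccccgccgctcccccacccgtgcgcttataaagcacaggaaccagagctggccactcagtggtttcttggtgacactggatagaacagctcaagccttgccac
EDN1: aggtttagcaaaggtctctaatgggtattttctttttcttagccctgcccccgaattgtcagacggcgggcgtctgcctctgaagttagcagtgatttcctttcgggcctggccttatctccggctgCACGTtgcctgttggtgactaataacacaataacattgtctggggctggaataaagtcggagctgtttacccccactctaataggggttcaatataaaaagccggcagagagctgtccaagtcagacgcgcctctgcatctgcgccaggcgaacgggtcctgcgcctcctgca
EDN2: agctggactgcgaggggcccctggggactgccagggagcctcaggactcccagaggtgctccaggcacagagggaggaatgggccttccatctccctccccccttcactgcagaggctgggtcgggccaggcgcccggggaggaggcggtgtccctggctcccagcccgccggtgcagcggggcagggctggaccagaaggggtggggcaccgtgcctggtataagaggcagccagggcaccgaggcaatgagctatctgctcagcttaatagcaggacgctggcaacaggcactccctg

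The ADM window held 1 such core, GCGTG, at positions -101 to -97 from the start, and a TATAAA at -27 to -22. The EDN1 window held 1 core, ACGTG on the opposite strand, at -123 to -119, and a TATAAA at -31 to -26. It is the only one of the 3 EDN1 windows in the table with TATAAA. The most upstream of the 3 held 3 cores (2 ACGTG and 1 GCGTG) and the other held none. The EDN2 window held neither core and no TATAAA. At least 1 of these cores was present in 48.4% of all 35116 windows listed (21.4% for ACGTG and 36.5% for GCGTG), and TATAAA on either strand in 11.5%. No window of the 7 genes with one held TGANTCA, a form of the AP-1 site found in 7.71% of all windows. Other forms of that site were not searched. ECE1, measured with differences of 0.15 and -0.11 on its probe sets, held 1 core in 1 of its windows, 2 in another and none in the rest. EDNRA, which had no probe set, held 1 core. EDNRB, below the floor on every probe set, held 5 cores in 1 of its windows, and CALCRL, also below the floor, held none. A match describes letters and not a bound site, and a window without one says only that these letters are not in this stretch.

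The receptor side was dim. CALCRL, the shared receptor for adrenomedullin and calcitonin gene-related peptide, had 11.4 in 786-VHL and 9.66 in 786-O on its brightest probe set, and its other probe sets ranged from 5.47 to 7.67. EDNRB had 7.76 in 786-VHL and 7.38 in 786-O on its brightest probe set, and its others ranged from 5.83 to 7.66. All 6 probe sets lay below the floor on both arrays and none of their differences exceeded 0.10 in size. RAMP1 had 24.9 in 786-VHL and 25.8 in 786-O, just above the floor, a difference of -0.03. RAMP2 and RAMP3, the partners for adrenomedullin, were below the floor, with RAMP2 at 16.9 in 786-VHL and 20.0 in 786-O and RAMP3 at 15.7 in 786-VHL and 16.4 in 786-O. A value below the floor says that these probes gave little signal and does not show that a transcript was absent.

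ECE1, the protease that releases endothelin from its precursor, was of moderate level and similar on both arrays. It had 179 in 786-VHL and 159 in 786-O on probe set 201749_at, and 157 in 786-VHL and 171 in 786-O on 201750_s_at. The differences of 0.15 and -0.11 had opposite signs and lay within the SD between probe sets. The endothelin ligands therefore differed between the arrays in opposite directions while the probe sets of their processing enzyme gave no consistent direction.

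The genes around the peptides were read from lists of their pathways. In the endothelin list 9 of 14 genes were measured, and EDN1 and EDN2 were the 2 at least 2-fold apart. The median difference was 0.01, against 0.05 over all measured genes. The largest others were GNA11 and ECE2. GNA11, a G protein subunit that couples endothelin receptors to phospholipase C, differed by -0.61, with 6 probe sets from -1.48 to -0.05. ECE2, a related converting enzyme, differed by -0.52, with 3 probe sets from -0.52 to -0.06. EDN3, the third endothelin gene, was below the floor.

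In the adrenomedullin and calcitonin-family list 7 of 16 genes were measured, with a median of -0.06, and only ADM was at least 2-fold apart. PAM, which amidates the carboxyl end of adrenomedullin and of other peptides, had 903 in 786-VHL and 1378 in 786-O, a difference of -0.60, and its 3 probe sets ranged from -0.60 to -0.43. CRCP, a component of the calcitonin gene-related peptide receptor, differed by 0.51, though its probe sets ranged from -0.41 to 0.51. The paralogs ADM2 and ADM5 differed by -0.06 and -0.04.

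In the natriuretic peptide list 8 of 12 genes were measured, with a median of -0.09 and, beside NPPB, 1 gene at least 2-fold apart. That gene was IDE, a protease that degrades insulin and natriuretic peptides, with 517 in 786-VHL and 243 in 786-O, a difference of 1.04. Its 3 probe sets ranged from 0.19 to 1.04, and their median was 0.83, under 2-fold. The receptor gene NPR1 had 69.5 in 786-VHL and 81.5 in 786-O, a difference of -0.19, with its other probe set at 0.05. The clearance receptor gene NPR3 differed by -0.25. MME, which encodes the natriuretic peptide-degrading protease neprilysin, differed by -0.57 with its other probe set at -0.99. DPP4, a dipeptidyl peptidase gene, differed by 0.60, with 3 probe sets from 0.04 to 0.60. NPPA, which encodes the atrial peptide, had 60.1 in 786-VHL and 59.3 in 786-O, so the difference of 0.01 contrasts with that of NPPB beside it on the chromosome.

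Among other vasoactive systems 1 gene was at least 2-fold apart. In the renin, angiotensin and kinin list 6 of 17 genes were measured with a median of -0.15, and ENPEP, the aminopeptidase that cuts angiotensin II, had 33.1 in 786-VHL and 97.2 in 786-O, a difference of -1.21 with its other probe set at -0.86. With a pseudocount of 64 its difference was -0.73, under 2-fold. In the nitric oxide and cyclic GMP list 10 of 15 were measured with a median of 0.20 and none 2-fold apart. GUCY1B1, a subunit of soluble guanylyl cyclase, differed by 0.65, and PDE2A, a cyclic nucleotide phosphodiesterase, by 0.28. In the list of other vasoactive peptides and receptors 13 of 28 were measured with a median of 0.21 and none 2-fold apart. UCN2, a urocortin gene, differed by 0.39 and the galanin receptor gene GALR2 by 0.38.

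**Figure D3:**
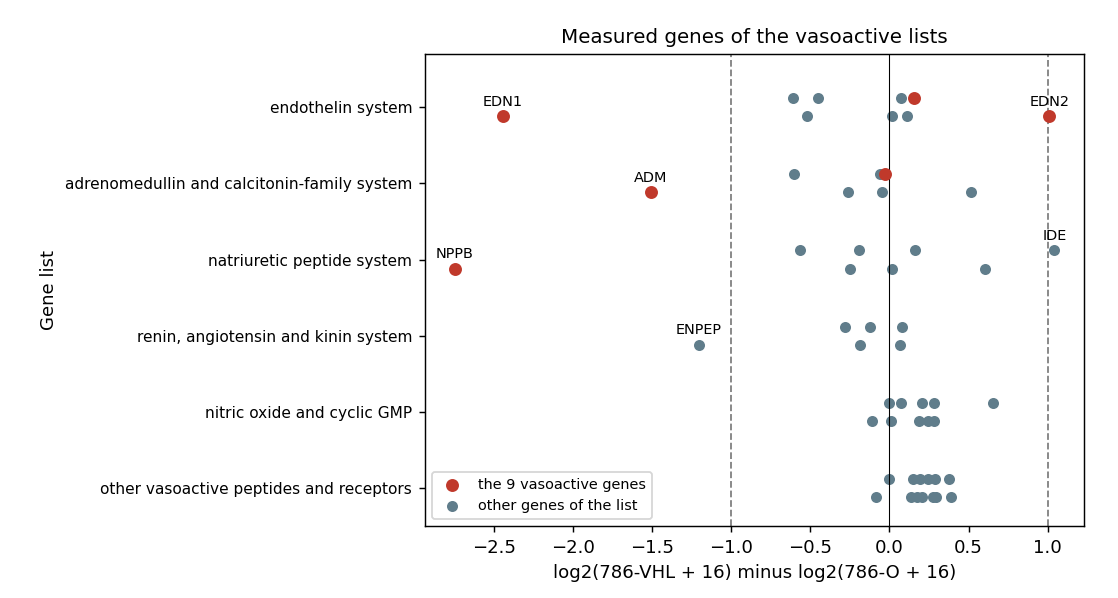
Log2 difference, 786-VHL minus 786-O (horizontal axis), of each measured gene in 6 lists of vasoactive pathways, with the 9 vasoactive genes in red, where measured, and other genes in grey. Beside EDN1, ADM, NPPB and EDN2, the genes past the dashed 2-fold limits are ENPEP at -1.21 and IDE at 1.04.

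Without the vasoactive genes themselves, 2 of 47 measured genes of the lists passed 2-fold, IDE higher and ENPEP lower in 786-VHL, beside the 3.72% of all measured genes that did, and the median difference of the 47 was 0.07, close to the 0.05 of all measured genes. The median of the 6 measured vasoactive genes was -0.77, in a group formed with these values in view.

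Genes most alike in level and difference, by Euclidean distance over the log2 values of the 2 arrays, were MAL and SYT13 for NPPB, EFEMP2 and PRXL2A for EDN1, EIF5B and NCEH1 for ADM, and NAPEPLD and HEY1 for EDN2. The distances ranged from 0.064 for NAPEPLD to 0.33 for PRXL2A, and over 2 arrays such likeness is a description of 2 values.

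Neighbouring genes were compared because genes close on a chromosome can shift together, with gene order taken from GRCh38.p14 and the 5 nearest measured protein-coding genes on each side. NPPB, on chromosome 1, was the only one of its group of neighbours below 0: all 10 neighbours were higher in 786-VHL, from 0.01 for NPPA to 0.88 for PLOD1, with a median of 0.22. EDN1, on chromosome 6, had neighbours with a median of -0.06, of which 6 were lower and 4 higher, and ADTRP at -1.22 was the lowest. Around ADM, on chromosome 11, the median was -0.20 and 7 of 10 were lower, with AMPD3 at -1.04, WEE1 at -0.79 and SBF2 at -0.60. EDN2, on chromosome 1, had 9 of 10 neighbours higher, with a median of 0.23 and FOXJ3 highest at 0.77. These counts stand beside 56.8% of all measured genes above 0 and 41.8% below 0, with a median of 0.05. The neighbour medians of ADM, EDN1 and EDN2 had the sign of the gene itself, and that of NPPB did not. The part of the neighbours in the result was not tested.

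**Figure D4:**
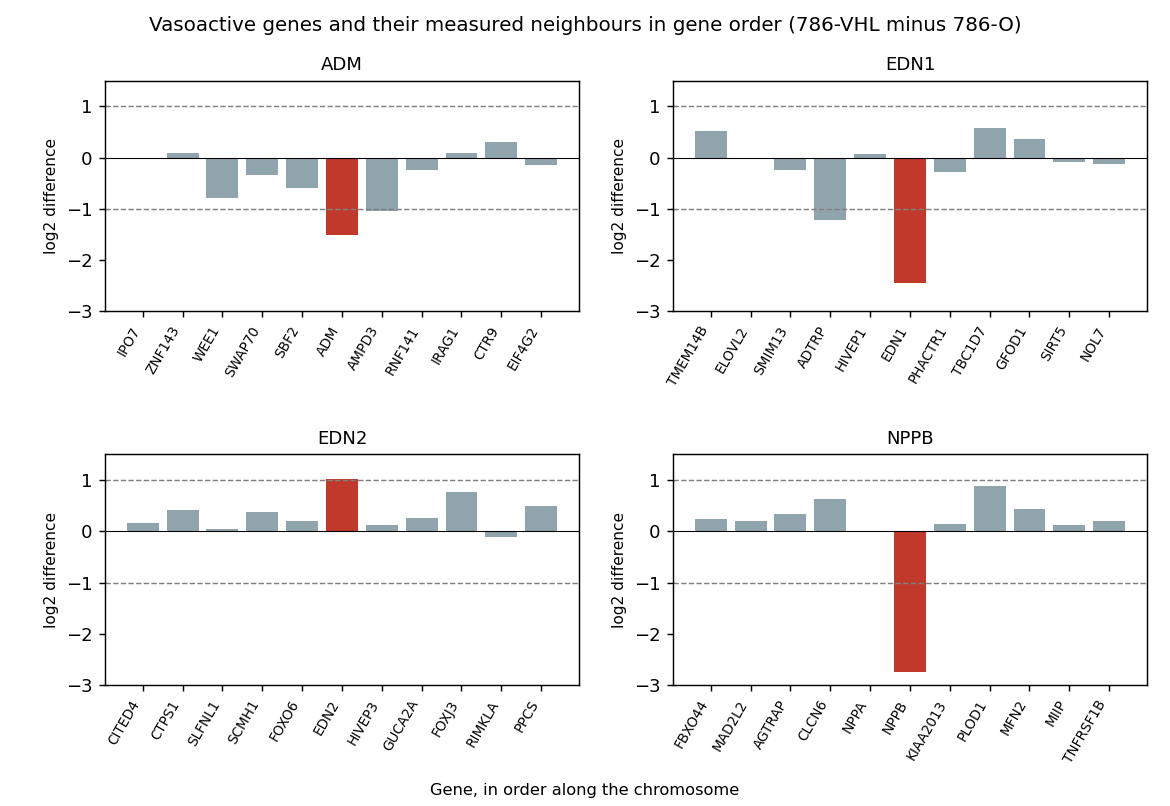
Log2 difference, 786-VHL minus 786-O, of ADM, EDN1, EDN2 and NPPB (red) and of 5 measured neighbours on each side in gene order (grey), with the 2-fold limits dashed. NPPB at -2.75 stands among neighbours from 0.01 to 0.88, while ADM stands among neighbours with a median of -0.20.

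Markers of the labelled cell type and of other cells were read beside these results. All 9 renal epithelial or clear-cell markers with a probe set were measured, among them PAX8, a kidney lineage transcription factor, at 1068 in 786-VHL and 1521 in 786-O. On their brightest probe set none was 2-fold apart, but the 8 probe sets of PAX8 were all lower in 786-VHL, from -1.08 to -0.29. CA9 was not analysed here. Of 10 endothelial markers, cells that usually make EDN1, 6 were measured with summed intensities of 209 in 786-VHL and 184 in 786-O, and CDH5, KDR, TIE1 and EMCN were below the floor. Of 8 cardiomyocyte markers, cells that usually make NPPB, 4 were measured with sums of 171 in 786-VHL and 167 in 786-O, and MYH7, TNNI3 and MYL2 were below the floor. Of 9 smooth muscle and pericyte markers 6 were measured with sums of 750 in 786-VHL and 1582 in 786-O and a median of -0.32. MCAM, an adhesion molecule, gave most of that gap, at 472 in 786-VHL and 1268 in 786-O, with its other probe set at 0.02, and ACTA2, smooth muscle actin, differed by -0.33. MYH11 and DES, a smooth muscle myosin and the filament protein desmin, were higher in 786-VHL, at 0.26 and 0.38, so 2 of the 6 were higher and 4 lower. PDGFRB, CSPG4 and LMOD1 were below the floor, and the part of this list in the lower EDN1, ADM and NPPB was not tested. Of 7 leukocyte markers CD79A alone was measured, at -0.15.

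**Figure D5:**
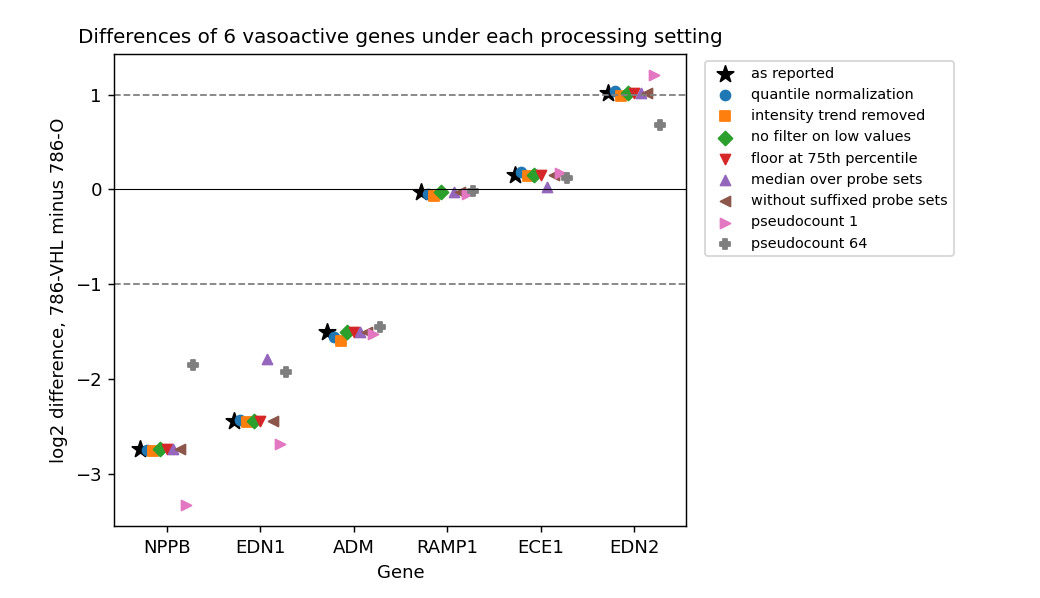
Log2 difference, 786-VHL minus 786-O, of the 6 measured vasoactive genes as reported (stars) and under each alternative setting, with the 2-fold limits dashed. ADM stays between -1.60 and -1.45, NPPB spreads from -3.33 to -1.85 with the pseudocount, and EDN2 lies on either side of the upper limit.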

How the data were processed

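Expression was measured with 2 Affymetrix arrays, 1 of total RNA from 786-VHL and 1 from 786-O. The authors deposited 1 linear-scale intensity per probe set and array, as the range of values shows. The submitters' processing notes list R 2.10. How background, scaling and probe summary were handled is not given in the sources used here, so compression by those steps cannot be separated from the values. No test was possible with 1 array per line.

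A platform annotation named 1 gene for 41091 of 54613 probe sets, several for 1801 and none for 11721. Of the single-gene probe sets 41037 were matched to a current symbol by Entrez gene number. After addition of 16 and log2 conversion, the probe set with the highest mean stood for its gene, and 13291 of 19775 genes were measured. All vasoactive genes are named, and from each list, genes at least 2-fold apart or otherwise the 2 with the largest difference. Genes and lists were chosen with earlier results of these data known. The neighbours were added later, and the remaining named list genes and markers were picked with their values already seen. Counting was tested on simulated data with planted changes. Promoter windows are from RefSeq (GRCh38.p14). Alternatives were quantile normalization, removal of a lowess trend, other floors, the median over probe sets, omission of probe sets ending in _s_at, _x_at or _a_at, a pseudocount of 1 or 64, and a 1.5-fold threshold. Tools were Python 3.11.15, numpy 2.4.6, pandas 2.3.3, statsmodels 0.14.6 and matplotlib 3.10.9.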

Additional observations from a re-analysis of the deposited data

How the results depend on the processing

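No paired analysis was possible because there was a single array of either line, which also leaves no replicate to omit. ADM, EDN1 and NPPB were lower in 786-VHL by at least 2-fold in 8 of 8 alternatives each, and EDN2 was at least 2-fold higher in 6 of 8. These counts include settings that could not move a value. ADM, NPPB and EDN2 have 1 unsuffixed probe set each. Other floors, the median over probe sets and omission of suffixed probe sets therefore returned their reported values by construction. Among these settings only the median moved EDN1. ADM ranged from -1.60 to -1.45. EDN1 was -1.79 over the median of probe sets and -1.92 with a pseudocount of 64. NPPB was -3.33 with a pseudocount of 1 and -1.85 with 64, and EDN2 was 0.67 with 64. The number of the 9 genes at least 2-fold higher was 0 with the intensity trend removed or with a pseudocount of 64, where EDN2 was under 2-fold.

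Over all vasoactive lists 6 genes passed 2-fold, with 2 higher and 4 lower. With a pseudocount of 64 there were 3, with 0 higher, and with the trend removed 0 were higher. Over the median of probe sets 1 was higher and 4 were lower, and without suffixed probe sets 1 was higher and 5 were lower. IDE was under 2-fold in 4 alternatives, at 0.996 with the trend removed, 0.92 with a pseudocount of 64, 0.83 over the median of probe sets and 0.19 without suffixed probe sets. At 1.5-fold there were 10, of which 4 were higher. Past 2-fold lay 495 of all measured genes (205 higher, 290 lower). There were 305 over the median of probe sets (129 and 176), 256 with a pseudocount of 64 (110 and 146) and 1702 at 1.5-fold (831 and 871). RAMP1 was below the floor at the 75th percentile and gave no value there. Of 32 alternative values of single probe sets 27 moved by less than the SD between probe sets, 5 by more, and none changed sign among those at least 2-fold apart. A larger pseudocount shrinks dim genes by construction. Other causes were not tested.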
